A study of Mus musculus with 18 samples.

Results

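Chemokines are small secreted proteins that direct the movement of leukocytes, and their receptors are read here as one gene family across every array of the study. The members were all genes whose symbol in the platform annotation is Ccl, Cxcl, Ccr or Cxcr with a number, begins with Ackr, or is Cx3cl1, Cx3cr1, Xcl1 or Xcr1. The arrays carried 80 such probes for 54 genes, out of 19057 named genes, and they comprised 33 ligands and 21 receptors. A gene counted as detected when at least 3 arrays gave one of its probes a detection p below 0.05, and its detected probe of highest mean over the 18 arrays stood for it. By this rule 31 of the 54 members were detected, 21 ligands and 10 receptors.

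RNA came from ileal epithelium of 18 CD-1 pups, an outbred mouse stock, of both sexes and kept free of specific pathogens. At 11 days of age each pup was gavaged with 50 uL of phosphate-buffered saline (PBS). The PBS carried 1e+08 colony-forming units of Lactobacillus reuteri ATCC PTA 6475, the same number of L. reuteri DSM 17938, or no bacteria, and pups were sampled 24 h later, at 12 days, or 4 h later. That gave 6 groups of 3 mice: ATCC PTA 6475, DSM 17938 and PBS at 24 h, and the same treatments at 4 h. Laser capture took the epithelium of the most distal 4 cm of ileum, over 24 sections for each animal, and 1 mouse was read on 1 single-colour Illumina bead array. Levels below are background-corrected, quantile-normalised log2 signals, and differences are on the same log2 scale.

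A chemokine is made by epithelium, stroma or resident immune cells, is held on matrix and cell surfaces, and draws cells that carry the matching G protein-coupled receptor. In the small intestine, epithelium is known for constant production of Ccl25, which brings gut-homing lymphocytes to it, and the epithelium over lymphoid follicles for Ccl20. Stroma of gut lymphoid follicles makes Cxcl13 and Ccl19, which position B and T cells, while Cxcl1, Cxcl9 and Cxcl10 are examples of chemokines induced by inflammation. Atypical receptors bind chemokines without the usual G protein signal and remove or transport them.

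Epithelial markers were detected for 13 of 14 genes, Fabp2 being the exception, and their summed level lay between 15.90 and 16.25 in all arrays. Markers of fibroblasts and smooth muscle were detected for 10 of 10 genes, with summed levels from 15.37 to 16.14, and endothelial markers for 8 of 8, and the part of these cells in the results below was not tested. Macrophage and dendritic cell markers were detected for 10 of 14 genes (not Cd68, Itgam, Itgax or Flt3), T cell markers for 10 of 15 (not Cd8a, Lck, Gzma, Gzmb or Trac), B cell and plasma cell markers for 4 of 8 (Cd79b, Mzb1, Blk and Ms4a1) and neutrophil markers for 6 of 10 (not Mpo, Ly6g, Mmp8 or Ngp). In the same order, a probe named for the gene alone existed for 13, 12, 6 and 9 of these genes. The genes not detected thus include some without such a probe, which were not measured, beside those below background. A lower signal can stand for fewer cells of a type or for less RNA per cell, and these cannot be told apart. Mean raw signal per array ran from 210.3 to 459.7, and the number of arrays, 3 a group, limits the precision.

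No member passed Benjamini-Hochberg adjustment over all 16823 genes and unnamed probes in any of 11 comparisons of the main limma fit. The background there was also 0% of all features. The smallest adjusted p of a member was 0.172, for Ackr3 in ATCC PTA 6475 against PBS at 24 h. The main fit leaves out the replicate number of the arrays. With that number as a block, 247 of all features and 0 members passed in this comparison. The range of differences can be read in the plot of all members against PBS. For orientation, a p that misses the threshold does not show that values were equal. In simulated data of the same design, limma called 3.5% of genes given a 1.5-fold change, 74% of those given a 2-fold change and 98.5% of those given a 4-fold change. That simulation took 1 comparison with 200 genes changed, so its rates need not hold for the members. The median standard deviation between mice of a group was 0.320 for the members and 0.227 for all features.

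**Figure D1:**
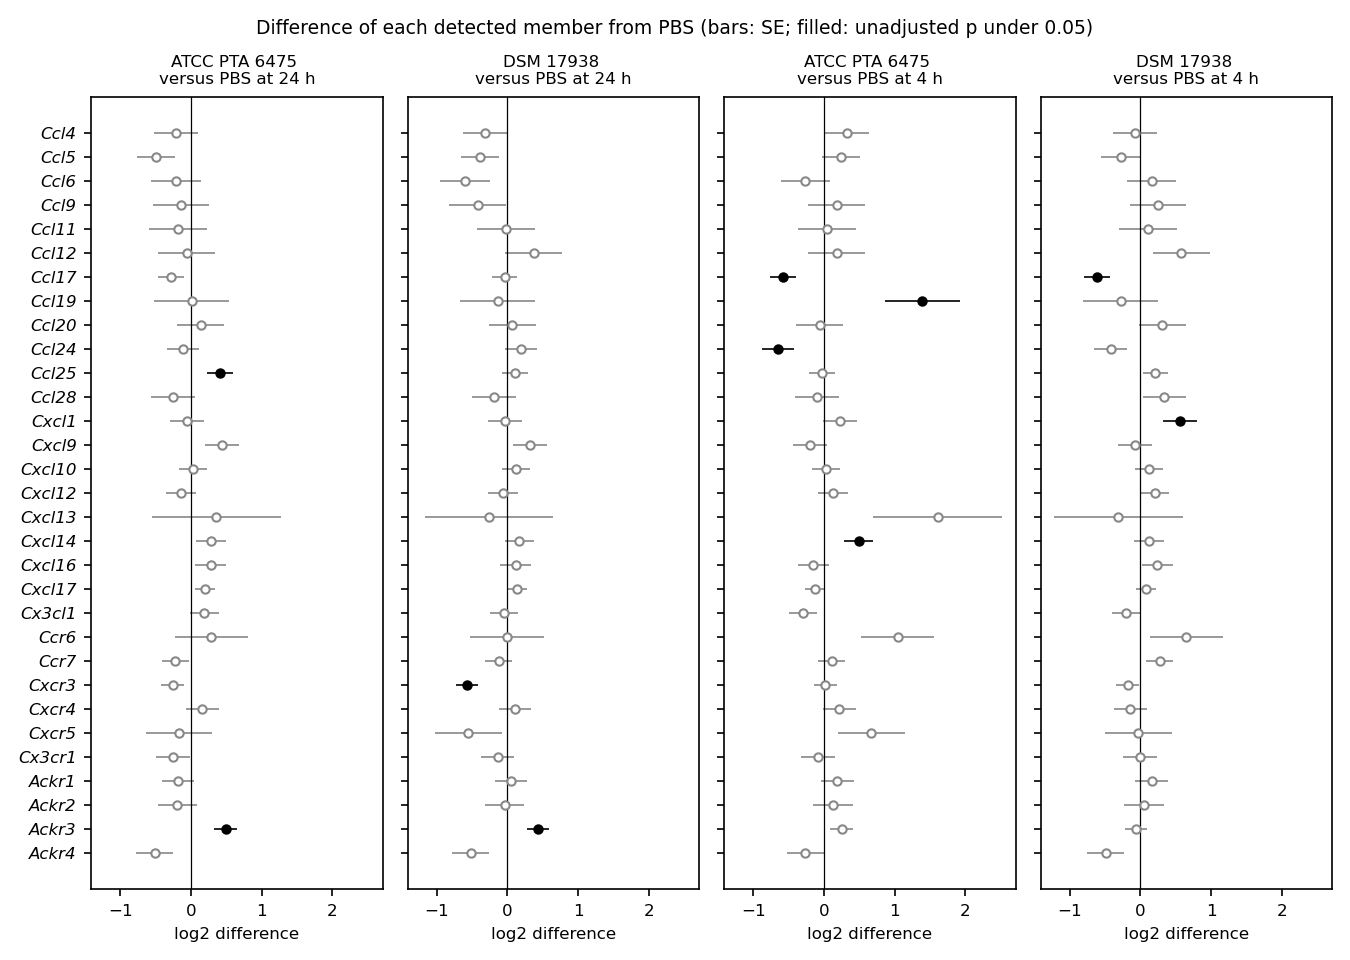
Difference from PBS on the log2 scale (horizontal axis) for the 31 detected members (rows), in 4 panels for ATCC PTA 6475 and DSM 17938 at 24 h and at 4 h; bars are the standard error from limma (3 mice a group), filled points have an unadjusted p under 0.05. Most points lie within 0.5 of 0, and Cxcl13 has the widest bars.

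At an unadjusted p under 0.05, 2 of 31 members were past the line for ATCC PTA 6475 against PBS at 24 h, 6.45% of members against 15.1% of all features, and 2 (6.45%) for DSM 17938 against PBS at 24 h, against 4.97% of all features. At 4 h the counts were 4 members for ATCC PTA 6475 (12.9%, against 3.33% of all features) and 2 for DSM 17938 (6.45%, against 3.33%). Between the strains, ATCC PTA 6475 against DSM 17938 gave 0 members at 24 h, where 4.00% of all features were past that p, and 2 members at 4 h, where 3.38% were. Between the times, 24 h against 4 h gave 5 members in ATCC PTA 6475 pups (16.1%, against 5.93% of all features), 2 in DSM 17938 pups (6.45%, against 2.47%) and 1 in PBS pups (3.23%, against 3.82%). The strain effect differed between 24 h and 4 h at that p for 2 members with DSM 17938 (2.21% of all features) and 0 with ATCC PTA 6475 (4.71%). These comparisons share groups, and the PBS arrays of a time serve both strains, so they are not independent of each other.

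The members as a group showed small median differences. For ATCC PTA 6475 against PBS the median over the 31 members was -0.11 at 24 h and 0.11 at 4 h, and for DSM 17938 it was -0.04 at 24 h and 0.08 at 4 h, while the median of all features lay between 0.00 and 0.02 in these 4 comparisons. The groups did not overlap for 5 of 31 members in ATCC PTA 6475 against PBS at 24 h (21.4% of all features), 2 in DSM 17938 against PBS at 24 h (9.05%), 2 in ATCC PTA 6475 against PBS at 4 h (7.69%) and 4 in DSM 17938 against PBS at 4 h (8.06%). Between the strains it was 0 members at 24 h (7.23%) and 4 at 4 h (8.17%), and between the times 5 in ATCC PTA 6475 pups (10.8%), 2 in DSM 17938 pups (5.82%) and 2 in PBS pups (9.26%). With 3 mice against 3, an exact two-sided permutation test of a single gene cannot give a p under 0.1.

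Among the ligands that intestinal epithelium is known to make, Ccl25, whose receptor is Ccr9, was detected in all 18 arrays. Its level was 12.47, 12.62 and 12.37 with ATCC PTA 6475, 12.38, 12.32 and 11.83 with DSM 17938, and 12.15, 12.19 and 11.87 with PBS at 24 h. At 4 h it was 12.14, 12.20 and 11.64 with ATCC PTA 6475, 12.38, 12.32 and 12.01 with DSM 17938, and 12.18, 11.87 and 12.04 with PBS. The ATCC PTA 6475 pups at 24 h all lay above the PBS pups of that time and above the ATCC PTA 6475 pups at 4 h, and the DSM 17938 pups overlapped both. The difference of ATCC PTA 6475 from PBS at 24 h was 0.41 (SE 0.18, unadjusted p = 0.0361, adjusted p = 0.297), and that of 24 h from 4 h within ATCC PTA 6475 was 0.49 (SE 0.18, unadjusted p = 0.0156, adjusted p = 0.83), or 0.31 without ATCC PTA 6475 replicate 3 at 4 h. Over the alternative fits the difference from PBS at 24 h ranged from 0.07 to 0.47 on this probe. Another Ccl25 probe detected in all 18 arrays did not share that difference and differed from PBS at 24 h by -0.45 (SE 0.34). The remaining detected probe differed by -0.03 (SE 0.13). It was above background in only 3 arrays, with a mean of 4.59, so it cannot show whether a difference was present.

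Cx3cl1, a membrane-bound ligand that holds cells carrying Cx3cr1, was detected in every array. At 24 h it measured 10.29, 9.96 and 9.91 with ATCC PTA 6475, 9.59, 9.75 and 10.11 with DSM 17938, and 10.06, 9.68 and 9.85 with PBS, and at 4 h 9.91, 9.71 and 10.12, then 10.22, 9.60 and 10.23, then 10.55, 9.99 and 10.11 for the same treatments. All groups overlapped, and the value of 10.55 in PBS replicate 1 at 4 h was the highest. The differences from PBS were 0.19 and -0.05 at 24 h and -0.30 and -0.20 at 4 h for ATCC PTA 6475 and DSM 17938 (SE 0.20, smallest unadjusted p = 0.155). Ccl20, the ligand of Ccr6, ranged from 5.45 to 7.36, overlapped PBS in every bacteria-treated group, and its highest value was in DSM 17938 replicate 3 at 24 h. Ccl28, a ligand of mucosal epithelium for Ccr10 and Ccr3, was detected in 9 of 18 arrays and in 0 of 3 with ATCC PTA 6475 at 4 h. Cxcl16, a membrane-bound ligand of Cxcr6, ranged from 5.52 to 6.43, and Cxcl17, a chemokine of mucosal surfaces, reached detection in only 3 arrays, 1 each with ATCC PTA 6475 at 24 h, DSM 17938 at 4 h and PBS at 4 h.

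Cxcl14, a chemokine made constantly by many epithelia, was detected throughout. At 4 h it measured 8.54, 8.22 and 8.47 with ATCC PTA 6475, 8.08, 8.13 and 7.91 with DSM 17938, and 7.46, 8.26 and 8.04 with PBS, and at 24 h 7.99, 8.05 and 8.52, then 8.12, 7.82 and 8.29, then 8.22, 7.75 and 7.75. At 4 h the ATCC PTA 6475 pups lay above the DSM 17938 pups, but PBS replicate 2 lay among the ATCC PTA 6475 values. The difference of ATCC PTA 6475 from PBS at 4 h was 0.49 (SE 0.21, unadjusted p = 0.0309, adjusted p = 1). PBS replicate 1 at 4 h had both the lowest Cxcl14 and the lowest summed fibroblast and smooth muscle level of all arrays, 15.37, and without that array the difference was 0.26. The other detected Cxcl14 probe differed from PBS by 0.11 (SE 0.22, unadjusted p = 0.605) at 4 h and by -0.29 at 24 h, where the probe used differed by 0.28.

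Of the ligands of inflammation, Cxcl1, which draws neutrophils through Cxcr2, measured 5.88, 5.63 and 6.34 with ATCC PTA 6475, 6.33, 5.89 and 6.63 with DSM 17938, and 5.29, 6.15 and 5.72 with PBS at 4 h. At 24 h it measured 5.96, 6.06 and 5.73 with ATCC PTA 6475, 5.99, 5.56 and 6.21 with DSM 17938, and 5.90, 5.97 and 6.03 with PBS. The DSM 17938 and PBS pups at 4 h overlapped, with PBS replicate 1 the lowest of all. The difference between them was 0.56 (SE 0.24, unadjusted p = 0.0314, adjusted p = 1), and 0.35 without that array. Cxcl9, an interferon-induced ligand of Cxcr3, was detected in all arrays between 4.84 and 5.84, and Cxcl10, of the same kind, in only 3 arrays.

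Ccl17, which dendritic cells make and which acts through Ccr4, was the member with the smallest p against PBS at 4 h for both strains. It measured 4.45, 4.94 and 4.64 with ATCC PTA 6475 at 4 h, 4.59, 4.59 and 4.77 with DSM 17938, and 5.23, 5.03 and 5.53 with PBS. All 6 bacteria-treated pups lay below all 3 PBS pups, and the probe was detected in 1 of 3, 0 of 3 and 3 of 3 arrays of these groups. The difference was -0.58 (SE 0.18, unadjusted p = 0.00478) for ATCC PTA 6475 and -0.61 (SE 0.18, unadjusted p = 0.00342) for DSM 17938, and both adjusted p-values were 1. As the probe was not above background with DSM 17938 at 4 h, its level there is an upper bound. The mean of the PBS pups was 1.43-fold above that bound, a ratio that leaves out the spread between mice. Both differences use the same 3 PBS arrays. At 24 h it measured 4.69, 4.60 and 4.75 with ATCC PTA 6475, 4.58, 5.02 and 5.18 with DSM 17938, and 5.22, 4.91 and 4.75 with PBS, where DSM 17938 and PBS pups overlapped and the effect of DSM 17938 differed from that at 4 h by 0.58 (SE 0.25, unadjusted p = 0.0363, adjusted p = 1).

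The eotaxins Ccl11 and Ccl24 attract eosinophils through Ccr3. Ccl24 measured 5.18, 5.22 and 5.52 with ATCC PTA 6475 at 4 h, 5.10, 5.52 and 6.01 with DSM 17938, and 6.21, 5.92 and 5.77 with PBS, and at 24 h 6.43, 6.03 and 5.67, then 6.20, 6.72 and 6.10, then 6.17, 6.10 and 6.18. At 4 h the ATCC PTA 6475 pups all lay below the PBS pups, and in both bacteria-treated groups every pup at 24 h lay above every pup at 4 h. The difference of ATCC PTA 6475 from PBS at 4 h was -0.65 (SE 0.23, unadjusted p = 0.0119, adjusted p = 1). That of 24 h from 4 h was 0.73 (SE 0.23, unadjusted p = 0.00573, adjusted p = 0.83) with ATCC PTA 6475 and 0.80 (SE 0.23, unadjusted p = 0.00315, adjusted p = 1) with DSM 17938. Ccl11 varied from 7.50 to 9.22 with a standard deviation of 0.49 over the arrays and no group apart from the others: it measured 8.32, 8.06 and 8.20 with ATCC PTA 6475, 7.50, 9.22 and 8.35 with DSM 17938, and 8.05, 8.69 and 8.38 with PBS at 24 h, and 8.03, 8.06 and 9.11, then 8.53, 7.98 and 8.88, then 7.53, 8.81 and 8.74 at 4 h. The differences from PBS lay between -0.18 and 0.11 (SE 0.41, smallest unadjusted p = 0.663).

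Ccl4 and Ccl5, attractants of T cells and monocytes, were past the unadjusted line only in the time comparison within ATCC PTA 6475. Ccl4 measured 5.36, 4.47 and 5.24 at 24 h and 6.26, 4.96 and 6.13 at 4 h, and Ccl5 4.99, 4.87 and 4.92 at 24 h and 5.24, 5.06 and 6.20 at 4 h. Ccl4 overlapped between the times, and Ccl5 did not, with replicate 3 at 4 h far above the rest. The differences were -0.76 (SE 0.31, unadjusted p = 0.0254) for Ccl4 and -0.58 (SE 0.27, unadjusted p = 0.0483) for Ccl5, each with an adjusted p of 0.83. Without replicate 3 at 4 h the Ccl5 difference was -0.23. That of Ccl4 was -0.48 without replicate 2 at 24 h and -1.17 without replicate 2 at 4 h. In the remaining groups Ccl4 measured 5.12, 5.25 and 4.39 with DSM 17938 and 5.30, 5.12 and 5.28 with PBS at 24 h, and 5.38, 5.62 and 5.15 with DSM 17938 and 5.24, 5.49 and 5.64 with PBS at 4 h. Ccl5 measured 4.53, 5.29 and 5.25 with DSM 17938 and 5.70, 5.50 and 5.04 with PBS at 24 h, and 5.07, 5.09 and 4.80 with DSM 17938 and 5.26, 4.97 and 5.56 with PBS at 4 h. For both genes the bacteria-treated and PBS groups overlapped, apart from Ccl5 with ATCC PTA 6475 at 24 h, whose 3 pups lay below the PBS pups (difference -0.49, SE 0.27, unadjusted p = 0.0897, adjusted p = 0.417). Ccl12, a mouse monocyte attractant, was detected in 17 arrays between 4.65 and 6.34.

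**Figure D2:**
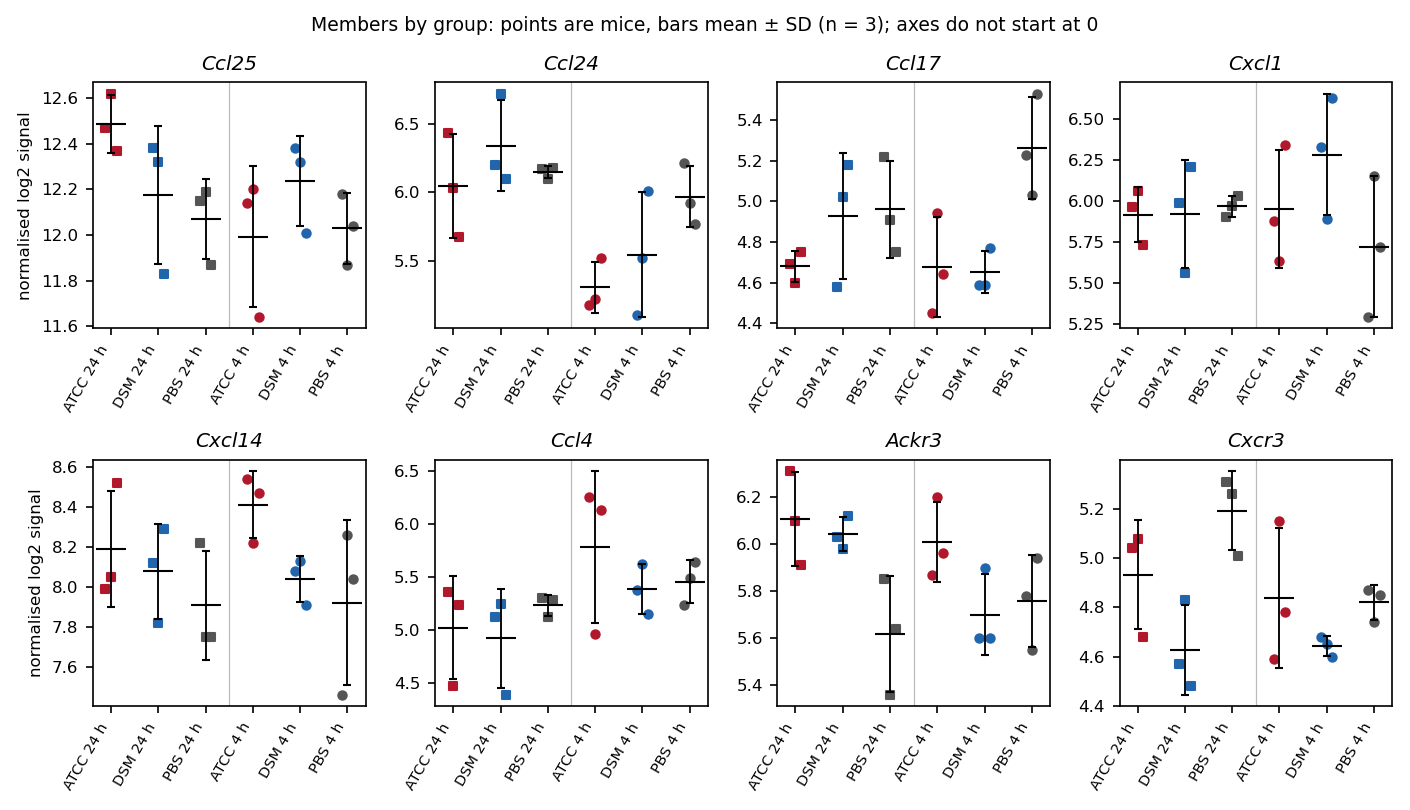
Normalised log2 signal (vertical axis, not starting at 0) of 8 members in the 6 groups, 24 h left of 4 h; points are mice and bars the mean and standard deviation of 3 mice. Ccl17 at 4 h lies between 4.45 and 4.94 in the bacteria-treated pups and between 5.03 and 5.53 in the PBS pups.

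Ccl6 and Ccl9, mouse CC ligands of myeloid cells that lie next to each other among the members on chromosome 11, followed each other across pups. Ccl9 measured 8.54, 8.57 and 7.46 with ATCC PTA 6475, 7.06, 8.31 and 8.38 with DSM 17938, and 8.61, 8.77 and 7.62 with PBS at 24 h, and 7.74, 8.44 and 8.48, then 8.26, 8.72 and 7.88, then 7.61, 8.22 and 8.29 at 4 h. Ccl6 ranged from 5.75 to 7.76, and for both genes DSM 17938 replicate 1 at 24 h was the lowest and PBS replicate 2 at 24 h the highest. Every group overlapped its PBS group for both genes. The differences of Ccl9 from PBS were -0.14 and -0.42 at 24 h and 0.18 and 0.25 at 4 h for ATCC PTA 6475 and DSM 17938 (SE 0.40, smallest unadjusted p = 0.31). Over the 18 arrays their correlation was r = 0.87 (rho 0.86, permutation p = 1e-05 and 2e-05, adjusted p = 0.00155 and 0.0031 over 465 pairs of detected members), it was 0.83 without the 2 arrays farthest from the median of Ccl6, and 0.91 on deviations from group means. The value of 1e-05 is the smallest that the 100000 permutations can give. Ccl6 and Ccl9 also followed Cx3cr1, the fractalkine receptor of mononuclear phagocytes (r = 0.68 and 0.77, rho 0.65 and 0.66, permutation p = 0.00101 and 0.00022 for r and 0.00405 and 0.00368 for rho, adjusted p = 0.0427 and 0.0128 for r, 0.122 for both rho, and r = 0.54 and 0.69 without the 2 farthest arrays). Against the summed macrophage and dendritic cell markers, which ranged from 10.16 in DSM 17938 replicate 1 at 24 h to 11.03 in DSM 17938 replicate 2 at 24 h, r was 0.74 for Cx3cr1, 0.72 for Ccl6 and 0.67 for Ccl9 (permutation p = 0.00051, 0.00041 and 0.0022, adjusted p = 0.0203, 0.0203 and 0.0477 over 217 relations). Spearman's rho was 0.72, 0.62 and 0.65 (permutation p = 0.00097, 0.00712 and 0.00443), and of these Cx3cr1 alone had an adjusted p under the threshold, 0.0351, against 0.152 and 0.12. Without the 2 farthest arrays r was 0.65, 0.49 and 0.48. The arrays share their normalisation, and near-identical copies can share probe signal, which was not tested. Because these neighbours moved together, their promoters from RefSeq (GRCm38.p6), 250 bases before to 50 after the start, are shown, both on the minus strand, with runs of at least 12 letters found in both in capitals.
Ccl6, chr11:83593038-83593337: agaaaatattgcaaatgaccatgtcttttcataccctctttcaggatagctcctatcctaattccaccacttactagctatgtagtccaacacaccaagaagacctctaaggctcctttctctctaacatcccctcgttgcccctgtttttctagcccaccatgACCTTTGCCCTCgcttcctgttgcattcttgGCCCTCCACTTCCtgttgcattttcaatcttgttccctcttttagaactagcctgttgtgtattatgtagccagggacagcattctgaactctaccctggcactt
Ccl9, chr11:83578587-83578886: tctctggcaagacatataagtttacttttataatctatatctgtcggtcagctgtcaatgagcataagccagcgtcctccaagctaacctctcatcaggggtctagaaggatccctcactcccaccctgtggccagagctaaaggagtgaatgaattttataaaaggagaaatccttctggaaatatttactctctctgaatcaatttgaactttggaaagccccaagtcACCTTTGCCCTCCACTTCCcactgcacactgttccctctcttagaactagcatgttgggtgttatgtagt
The longest such run was 19 letters in Ccl9 and 13 in Ccl6, where these letters occur in 2 shorter pieces.

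Among the ligands that organise tissue, Cxcl12, a stromal ligand of Cxcr4 and Ackr3, measured 10.86, 10.38 and 10.65 with ATCC PTA 6475, 10.63, 10.88 and 10.63 with DSM 17938, and 10.70, 11.12 and 10.51 with PBS at 24 h. At 4 h it measured 10.45, 10.38 and 10.83, then 10.82, 10.21 and 10.86, then 10.11, 10.63 and 10.55 for the same treatments. All groups overlapped, and the differences from PBS were -0.14 and -0.06 at 24 h and 0.13 and 0.20 at 4 h for ATCC PTA 6475 and DSM 17938 (SE 0.21, smallest unadjusted p = 0.36). Its probes disagreed. Another Cxcl12 probe, detected in all 18 arrays, measured 7.67, 7.69 and 7.68 with ATCC PTA 6475 and 6.70, 7.45 and 7.26 with PBS at 4 h, without overlap, a difference of 0.54 (SE 0.17, unadjusted p = 0.00479). This probe at 24 h measured 7.23, 7.12 and 7.19 with ATCC PTA 6475 and 7.58, 7.64 and 7.50 with PBS, again without overlap and in the opposite direction, a difference of -0.39 (SE 0.17, unadjusted p = 0.0313). On that probe the ATCC PTA 6475 effect differed between the times by -0.94 (SE 0.24, unadjusted p = 0.00106) and 24 h from 4 h within ATCC PTA 6475 by -0.50, against -0.27 and 0.08 for the probe used. A further probe detected in all 18 arrays had the same directions: ATCC PTA 6475 differed from PBS by 0.18 (SE 0.35) at 4 h and -0.70 (SE 0.35, unadjusted p = 0.0626) at 24 h. Its change of effect was -0.87 (SE 0.49) and its difference of 24 h from 4 h -0.72 (SE 0.35). The remaining detected probe, above background in 7 arrays, differed from PBS by 0.17 and 0.12 (SE 0.12 each). These p-values were not adjusted, since 1 probe a gene was tested.

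Cxcl13, the B cell attractant of lymphoid follicles, varied more between pups than any other detected member, with a standard deviation of 1.26 and a range of 5.11 to 9.19. It measured 8.55, 7.10 and 6.42 with ATCC PTA 6475, 8.35, 6.28 and 5.55 with DSM 17938, and 8.47, 6.85 and 5.64 with PBS at 24 h. At 4 h it measured 5.98, 9.19 and 8.70 with ATCC PTA 6475, 6.62, 5.71 and 5.77 with DSM 17938, and 5.11, 7.39 and 6.53 with PBS. Replicate 1 of each 24 h group and replicates 2 and 3 of ATCC PTA 6475 at 4 h lay above 8, the other 13 arrays at or below 7.39. The difference of ATCC PTA 6475 from DSM 17938 at 4 h was 1.92 (SE 0.91, unadjusted p = 0.0496, adjusted p = 1), and the groups overlapped. Ccl19, which draws Ccr7-bearing T cells and dendritic cells, measured 6.36, 7.84 and 8.39 with ATCC PTA 6475, 5.72, 5.70 and 6.15 with DSM 17938, and 5.48, 6.46 and 6.46 with PBS at 4 h. At 24 h it measured 6.60, 6.07 and 6.37, then 7.35, 5.65 and 5.58, then 7.33, 5.99 and 5.67 for the same treatments. The ATCC PTA 6475 pups at 4 h lay above the DSM 17938 pups without overlap and overlapped the PBS pups. The difference from DSM 17938 was 1.67 (SE 0.53, unadjusted p = 0.00601, adjusted p = 1), from PBS 1.39 (SE 0.53, unadjusted p = 0.0182, adjusted p = 1), and that of 24 h from 4 h within ATCC PTA 6475 was -1.18 (SE 0.53, unadjusted p = 0.0399, adjusted p = 0.83).

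The summed level of the 4 detected B cell and plasma cell markers (Cd79b, Mzb1, Blk and Ms4a1) moved with both genes. It ranged from 6.95 to 9.50 with ATCC PTA 6475, from 6.95 to 7.23 with DSM 17938 and from 6.69 to 7.36 with PBS at 4 h. At 24 h it ranged from 7.65 to 8.63, from 6.89 to 8.42 and from 6.87 to 8.59 for the same treatments. The 5 arrays with Cxcl13 above 8 were also the 5 with the highest B cell marker level, 8.42 to 9.50, against 6.69 to 7.68 in the other 13. With that level as a covariate, the difference of ATCC PTA 6475 from DSM 17938 at 4 h was -0.17 for Cxcl13 and 0.51 for Ccl19, and the difference of Ccl19 from PBS was 0.27. Without the 5 arrays, which leaves a single ATCC PTA 6475 array at 4 h that is assumed to vary like the other groups, these were -0.05, 0.50 and 0.22. The 5 arrays also hold the 5 highest values of Cxcl13 and of Ccl19, including ATCC PTA 6475 replicates 2 and 3 at 4 h. Leaving them out therefore had to lower these differences and is not a test of them. The Ccl19 difference of 24 h from 4 h within ATCC PTA 6475 was -0.78 with the covariate, -0.14 without the 5 arrays and -0.75 without ATCC PTA 6475 replicate 3 at 4 h. Without ATCC PTA 6475 replicate 1 at 4 h the Cxcl13 difference between the strains was 2.91. Both settings were chosen after seeing the data. T cell markers at an unadjusted p under 0.05 numbered 4 of 10 higher with ATCC PTA 6475 than with PBS at 4 h (Itgae, Cd3d, Cd3e and Cd2), and B cell markers 2 of 4 (Cd79b and Blk), where 1.75% of all features were higher at that p.

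**Figure D3:**
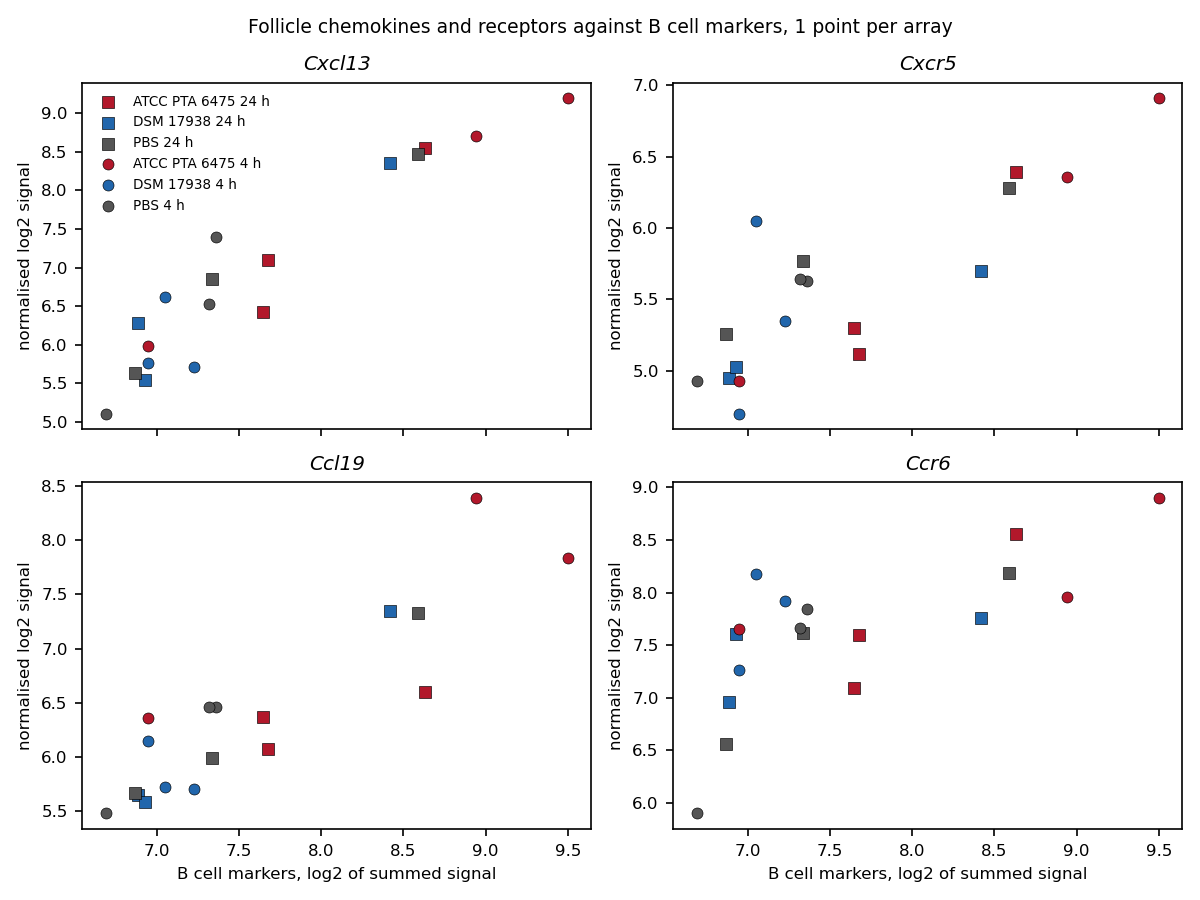
Normalised log2 signal of Cxcl13, Cxcr5, Ccl19 and Ccr6 (vertical axes) against the log2 summed signal of 4 B cell and plasma cell markers (horizontal axis), 1 point per array; colours are treatments, squares 24 h and circles 4 h. The 5 arrays with a marker level of at least 8.42 hold the 5 highest Cxcl13 values, and they come from 4 of the 6 groups.

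The 5 arrays and the other 13 lay apart for Ccl19 too, 6.60 to 8.39 against 5.48 to 6.46, and overlapped for Cxcr5 (5.70 to 6.91 against 4.70 to 6.05), Ccr6 (7.76 to 8.90 against 5.90 to 8.18) and Cxcr4 (6.45 to 6.98 against 5.77 to 6.52). Over all 18 arrays each of these 5 genes was correlated positively with the B cell markers: the permutation p of Pearson's r, adjusted over 217 relations, was 0.000723 for Cxcl13, Ccl19 and Cxcr5 and 0.0258 for Ccr6 and Cxcr4, and that of rho was at most 0.0351. These values take in the gap between the sets, so the coefficients are given within the 13 arrays alone, a subset chosen after seeing the data that narrows the range of both measures. There r with the B cell marker level was 0.75 for Cxcl13 (rho 0.81, permutation p = 0.00411 and 0.00128), 0.61 for Ccl19 (rho 0.72, permutation p = 0.0286 and 0.00682), 0.46 for Ccr6, 0.39 for Cxcr5 and 0.16 for Cxcr4. The smallest adjusted p within the 13 arrays was 0.178 for r and 0.278 for rho, both for Cxcl13, which does not show that the relations are absent there. The promoters of Cxcl13 (plus strand) and Ccl19 (minus strand) are shown because these genes moved together, from RefSeq (GRCm38.p6) and over the same window. Capitals mark the letters TATAAA (the TATA box) and an NF-kB motif of GGGA, any 4 letters and CC, searched on both strands.
Cxcl13, chr5:95956689-95956988: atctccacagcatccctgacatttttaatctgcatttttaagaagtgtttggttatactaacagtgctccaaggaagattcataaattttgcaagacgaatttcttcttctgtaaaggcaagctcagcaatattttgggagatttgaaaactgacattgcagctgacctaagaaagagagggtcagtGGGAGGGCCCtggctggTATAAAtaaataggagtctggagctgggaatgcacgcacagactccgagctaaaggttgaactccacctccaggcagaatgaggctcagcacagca
Ccl19, chr4:42756316-42756615: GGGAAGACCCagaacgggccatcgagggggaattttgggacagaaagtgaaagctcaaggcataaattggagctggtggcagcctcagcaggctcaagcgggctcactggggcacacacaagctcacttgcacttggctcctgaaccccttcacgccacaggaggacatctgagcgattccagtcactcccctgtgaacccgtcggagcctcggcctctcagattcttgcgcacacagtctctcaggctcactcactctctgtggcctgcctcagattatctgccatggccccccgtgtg
In Cxcl13 the NF-kB motif match starts 63 bases and TATAAA 46 bases before the start site, and in Ccl19 the single match starts 250 bases before it. Of 32851 mouse promoters of that length, 13.6% hold TATAAA and 20.7% the NF-kB motif. Among the 25 promoters of the 23 detected members in the table, 9 and 8 did. A match describes letters, not a bound site.

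**Figure D4:**
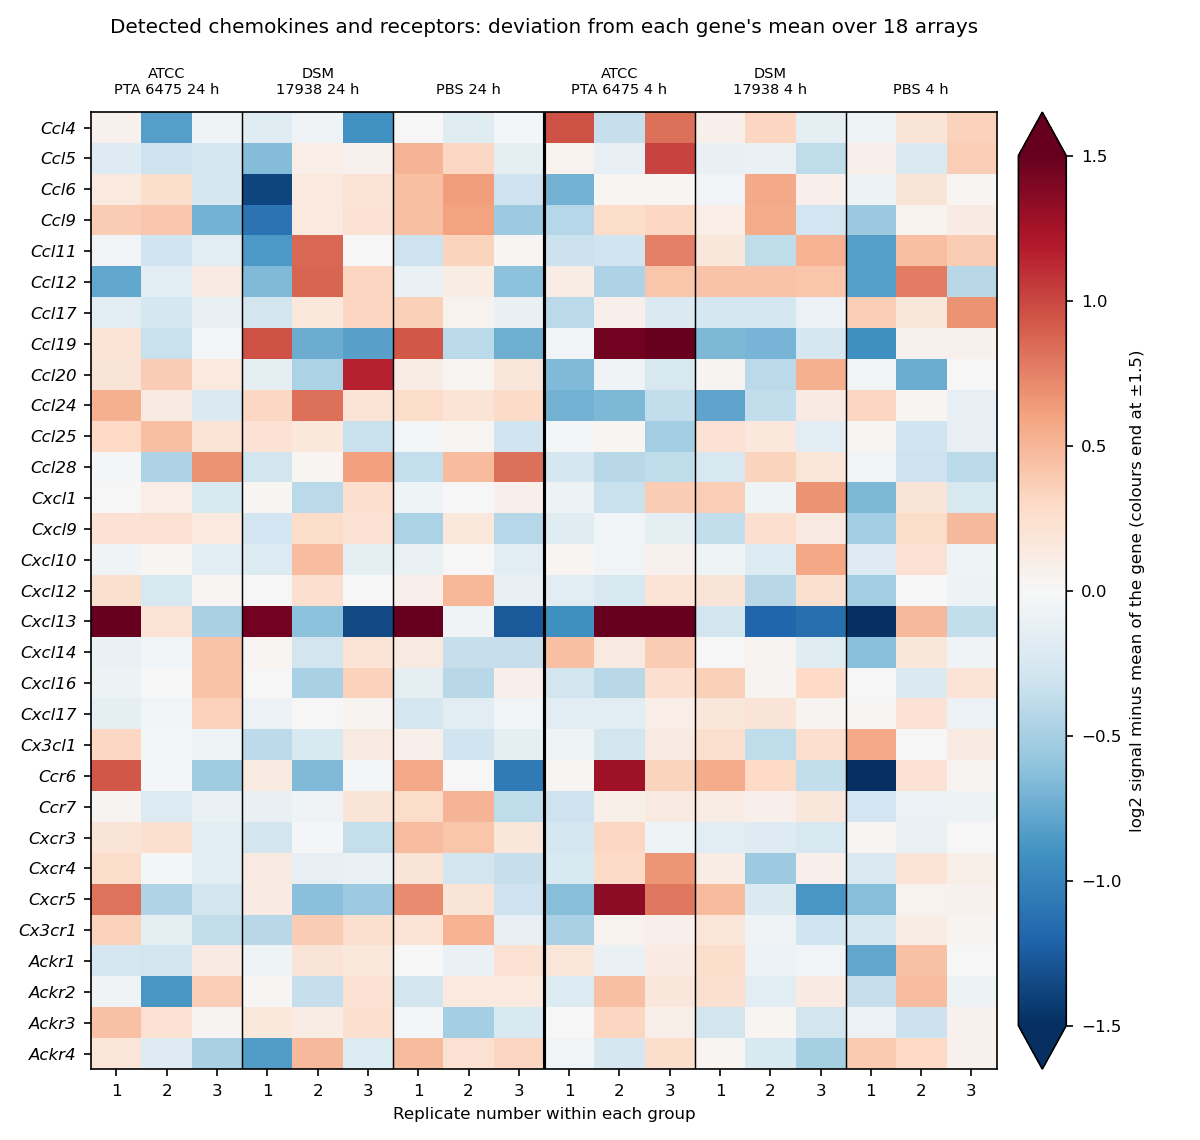
Deviation of each detected member (rows) from its own mean over the 18 arrays, in log2 units by colour, with arrays in columns by group and replicate number. Cxcl13, Ccl19, Cxcr5 and Ccr6 are high together in ATCC PTA 6475 replicate 2 at 4 h, and DSM 17938 replicate 1 at 24 h is lowest for Ccl6 and Ccl9.

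Of the receptors, Cxcr5, which guides B cells to Cxcl13, was detected in 17 arrays. It measured 6.39, 5.12 and 5.30 with ATCC PTA 6475, 5.70, 4.95 and 5.03 with DSM 17938, and 6.28, 5.77 and 5.26 with PBS at 24 h, and 4.93, 6.91 and 6.36, then 6.05, 5.35 and 4.70, then 4.93, 5.63 and 5.64 at 4 h. The 3 arrays with the highest values, 6.91, 6.39 and 6.36, were among the 5 with Cxcl13 above 8. Its difference of ATCC PTA 6475 from PBS at 4 h was 0.67 (SE 0.47, unadjusted p = 0.173), and it was 0.24 without ATCC PTA 6475 replicate 2, 1.23 without ATCC PTA 6475 replicate 1, 0.43 without PBS replicate 1 and -0.29 with the B cell covariate. Another Cxcr5 probe, detected in 11 arrays, gave 0.69 for this difference (SE 0.36, unadjusted p = 0.0699 by limma). Ccr6, the receptor of Ccl20 on B cells and some T cells, ranged from 5.90 in PBS replicate 1 at 4 h to 8.90 in ATCC PTA 6475 replicate 2 at 4 h, with a difference of 1.04 between these groups (SE 0.52, unadjusted p = 0.0634, adjusted p = 1). Without that PBS array the Ccr6 difference was 0.42, without that ATCC PTA 6475 array 0.67, and with the B cell covariate 0.17. Another Ccr6 probe, detected in all 18 arrays, gave 0.72 (SE 0.36, unadjusted p = 0.0648 by limma). For both genes the other probe was read on the same arrays, and its p was not adjusted. Cxcr4, the receptor of Cxcl12, ranged from 5.77 to 6.98, its highest value being ATCC PTA 6475 replicate 3 at 4 h. Ccr7, the receptor of Ccl19 on T cells and dendritic cells, was detected in 7 arrays, 0 of 3 in ATCC PTA 6475 and 2 of 3 in PBS pups at 24 h. Cx3cr1 was detected in all arrays between 6.33 and 7.34.

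Cxcr3, the receptor of Cxcl9 and Cxcl10 on activated T cells, was detected in 11 arrays. At 24 h it measured 5.04, 5.08 and 4.68 with ATCC PTA 6475, 4.57, 4.83 and 4.48 with DSM 17938, and 5.31, 5.26 and 5.01 with PBS. At 4 h it measured 4.59, 5.15 and 4.78, then 4.68, 4.65 and 4.60, then 4.87, 4.74 and 4.85 for the same treatments. The DSM 17938 pups all lay below the PBS pups of the same time, both at 24 h and at 4 h. The PBS pups at 24 h all lay above those at 4 h. With DSM 17938 at 4 h the level is an upper bound. The mean of the PBS pups at 4 h was 1.05-fold above it, a ratio that leaves out the spread between mice. The difference of DSM 17938 from PBS at 24 h was -0.57 (SE 0.16, unadjusted p = 0.00204, adjusted p = 0.911), and that of 24 h from 4 h within PBS was 0.38 (SE 0.16, unadjusted p = 0.0278, adjusted p = 0.999). With DSM 17938 the probe was detected in 1 of 3 arrays at 24 h and 0 of 3 at 4 h, so these values lie close to background. Among the 24 h groups, neutrophil markers were also highest with PBS. Their summed level was 7.71 to 7.92 with ATCC PTA 6475, 7.83 to 8.10 with DSM 17938 and 8.28 to 10.35 with PBS. The value of 10.35 was replicate 1, and the other PBS pups stood at 8.28 and 8.51. DSM 17938 replicates 2 and 3 at 4 h, at 8.73 and 8.66, lay above both of these. At 4 h the level was 7.80 to 8.30 with ATCC PTA 6475, 7.74 to 8.73 with DSM 17938 and 7.66 to 7.86 with PBS. Over the 18 arrays Cxcr3 and these markers had r = 0.37 and rho 0.07 (permutation p = 0.125 and 0.793). Without the 2 arrays farthest from the median of Cxcr3, r was -0.19. The part of these markers in the 24 h differences was not tested.

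All 4 atypical receptors were detected. Ackr3, which takes up Cxcl12, measured 6.31, 6.10 and 5.91 with ATCC PTA 6475, 6.03, 5.98 and 6.12 with DSM 17938, and 5.85, 5.36 and 5.64 with PBS at 24 h. At 4 h it measured 5.87, 6.20 and 5.96, then 5.60, 5.90 and 5.60, then 5.78, 5.55 and 5.94 for the same treatments. At 24 h every bacteria-treated pup lay above every PBS pup, and at 4 h all groups overlapped PBS. The difference from PBS at 24 h was 0.49 for ATCC PTA 6475 (SE 0.16, unadjusted p = 0.00646, adjusted p = 0.172) and 0.43 for DSM 17938 (SE 0.16, unadjusted p = 0.0156, adjusted p = 0.911), against the same 3 PBS arrays. The DSM 17938 pups at 24 h also lay above those at 4 h (0.34, SE 0.16, unadjusted p = 0.0454, adjusted p = 1), and the DSM 17938 effect differed between the times by 0.49 (SE 0.22, unadjusted p = 0.0446, adjusted p = 1).

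Ackr4, which binds Ccl19 and Ccl25, differed from PBS at 24 h by -0.51 with ATCC PTA 6475 and -0.52 with DSM 17938 (SE 0.26 each, unadjusted p = 0.0686 and 0.0603). Ackr4 at 4 h measured 5.80, 5.54 and 5.27 with DSM 17938, all below 6.16, 6.07 and 5.84 with PBS (difference -0.49, SE 0.26, unadjusted p = 0.0784), while ATCC PTA 6475 overlapped PBS (difference -0.26). Another Ackr4 probe, detected in 11 arrays, differed from PBS at 24 h by -0.05 with ATCC PTA 6475 and 0.13 with DSM 17938, and at 4 h by -0.05 and 0.11. Its mean of 4.78 was close to background, so it cannot show whether a difference was present. Ackr1, a binder of many inflammatory chemokines on venules, ranged from 5.71 to 6.93, and Ackr2, a scavenger of CC ligands, from 4.79 to 6.13, with no group apart from its PBS group. Ackr1 followed the fibroblast and smooth muscle markers (r = 0.78, rho 0.64, permutation p = 0.00056 and 0.00559, adjusted p = 0.0203 and 0.135 over 217 relations), as did Cxcl14 (r = 0.69, rho 0.48, permutation p = 0.00141 and 0.0463, adjusted p = 0.034 and 0.502). Without the 2 arrays farthest from the median of the gene, r was 0.47 for Ackr1 and 0.38 for Cxcl14. The size of both coefficients thus depends in part on those arrays, and leaving them out also narrows the range.

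A matching ligand and receptor were both detected for 9 of 25 known pairs. Cxcl13 with Cxcr5 was the 1 pair past the threshold over all 18 arrays (permutation p adjusted over the 9 pairs = 0.00027 for r and 0.00045 for rho), a positive relation that takes in the gap between the 5 arrays and the other 13. Within the 13 arrays r was 0.59 and rho 0.59 (permutation p = 0.0361 and 0.0364, adjusted p = 0.58 and 0.719 over all 465 pairs of members), and r was 0.50 without the 2 farthest arrays. The other 8 pairs had r between -0.28 and 0.35 over the 18 arrays, and adjusted over the 9 pairs their smallest p was 0.584. Ccl20 with Ccr6 stood at r = -0.05 (rho -0.20), Cxcl12 with Cxcr4 at 0.35 (rho 0.26) and Cx3cl1 with Cx3cr1 at -0.01 (rho 0.10), with permutation p = 0.833, 0.155 and 0.975 for r and 0.437, 0.29 and 0.685 for rho.

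The 23 members not detected by the rule were Ccl1, Ccl2, Ccl3, Ccl7, Ccl8, Ccl22 and Ccl26, Cxcl2, Cxcl3, Cxcl11 and Cxcl15, Xcl1, the receptors Ccr1, Ccr2, Ccr3, Ccr4, Ccr8, Ccr9 and Ccr10, Cxcr1, Cxcr2 and Cxcr6, and Xcr1. Ccl3 was above background in 2 arrays, Ccl7, Cxcl11 and Cxcr6 in 1 each, and the other 19 in 0. Ccr9, the receptor of Ccl25, and Cxcr2, the receptor of Cxcl1, were thus not above background here, which bounds their signal and does not show absence. On chromosome 9 the neighbouring receptors Ccr9, Cxcr6, Xcr1, Ccr1, Ccr3 and Ccr2 were all among these, while of 14 members on chromosome 11, 8 were detected. Cxcl5 was not analysed here.

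Genes around the family gave no call either. Of 14 tested family genes outside the naming rule, 28 of receptor signalling, 20 inducers of epithelial chemokines, 19 other NF-kB targets and 12 proteases and sulfation enzymes, 0 passed adjustment in any comparison by limma. At an unadjusted p under 0.05 the NF-kB targets numbered 1 higher and 1 lower of 19 with ATCC PTA 6475 against PBS at 24 h, where 7.58% of all features were higher and 7.48% lower. They numbered 2 higher with DSM 17938 at 24 h (2.55% of all features), 2 higher with ATCC PTA 6475 at 4 h (1.75%) and 4 higher with DSM 17938 at 4 h (1.66%). Nfkbiz, a regulator of NF-kB responses, averaged 10.32 ± 0.11 with ATCC PTA 6475, 10.10 ± 0.27 with DSM 17938 and 9.76 ± 0.18 with PBS at 24 h, and 10.08 ± 0.07, 10.13 ± 0.10 and 9.74 ± 0.08 at 4 h (SD, n = 3 each). Saa3, an acute-phase protein, averaged 5.11 ± 0.22 with ATCC PTA 6475, 8.84 ± 0.29 with DSM 17938 and 5.39 ± 0.35 with PBS at 24 h. At 4 h it averaged 5.08 ± 0.47, 8.37 ± 2.59 and 4.95 ± 0.25 for the same treatments (SD, n = 3 each). Its limma adjusted p for DSM 17938 against PBS was 0.911 at 24 h and 1 at 4 h. limma pools the spread of all 6 groups, so the SD of 2.59 at 4 h enters the 24 h test too. That adjusted p does not show equal levels at 24 h. Among signalling genes, Rgs1, a brake on chemokine receptor signalling, averaged 6.66 with DSM 17938 and 5.58 with PBS at 24 h (difference 1.08, SE 0.35, unadjusted p = 0.00703, adjusted p = 0.911), and 6.94 with ATCC PTA 6475 and 6.15 with PBS at 4 h (difference 0.79, SE 0.35, unadjusted p = 0.0394, adjusted p = 1).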

How the data were processed

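Bead signals of 18 arrays were used as the authors deposited them: linear intensity per probe, with no scaling of arrays to each other. The detection values, per the file headers, are deposited as a fraction from 0 to 1 that rises with the signal (Spearman -0.987 to -0.975 for signal against 1 minus the column), so detection p was taken as 1 minus it. The authors' deposited value table holds log2 values with a median of 5.92 in each column, at most 0.0386 from log2 quantile-normalised signals; its background step was not stated, and it served as an alternative. GenomeStudio is the program named in the submitters' processing notes. Gene symbols came from the platform annotation, updated through gene IDs (34807 probes); 34885 probes had 1 symbol, 18 several and 10378 none.

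Signals were corrected with neqc in limma 3.58.1 (R 4.3.3; offset 16, quantile normalisation, log2). Of 45281 probes, 24506 were detected in at least 3 arrays; 12804 named genes and 4019 unnamed probes were tested. limma was fitted to 6 groups (12 residual and 4.250 prior degrees of freedom), with Benjamini-Hochberg adjustment at 0.05 within each of 11 comparisons. A test on simulated data took the 24 h comparison of ATCC PTA 6475 with PBS (200 of 16823 genes changed; 0, 9 and 4 unchanged genes were called at 1.5, 2 and 4-fold). Correlations used 100000 permutations (Python 3.11.15, numpy 2.4.6, scipy 1.17.1). A bound sets the bright group's mean against the dim group's detection floor.

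Members named in full had an unadjusted p under 0.05 in any comparison or were among the 6 of highest mean signal; of related lists, up to 4 genes with the smallest p were named. Members, lists and marker genes were chosen with earlier results of these data known. Alternatives were median scaling, an offset of 50, a stricter detection filter or none, the deposited values, array weights, a replicate block, other probes, fits to the compared arrays alone, leaving out each array, and 2 added after seeing the data. Each array is 1 mouse by its label, and litters and chips are not named.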

Additional observations from a re-analysis of the deposited data

How the results depend on the processing

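No member passed adjustment in any of the 188 alternative fits (smallest adjusted p 0.116, Ccl25 in ATCC PTA 6475 against PBS at 24 h with the replicate block). The replicate block called 247 of all features in that comparison, 0 of them members. By deviations from group means, 17 of 18 arrays were closest to their own number. Same-numbered pairs correlated above 0.1 in 9, 8 and 14 of 15 cases, against 12 of 90 pairs of different number. The file headers number the arrays in the order replicate 1, 2 and 3, with all 6 groups in each. The numbers were not taken as pairs, since the labels do not say what they stand for. The main fit and the permutation p-values over 18 arrays leave this structure out. Median scaling shifted all features by -0.16 in that comparison, -0.11 at 4 h, -0.17 for ATCC PTA 6475 against DSM 17938 at 24 h and -0.12 for 24 h against 4 h in ATCC PTA 6475. The Ccl25 differences turned to -0.45 and -0.03 (against PBS at 24 h) and -0.05 and -0.04 (24 h against 4 h) on other probes. The values of -0.03 and -0.04 are from a probe close to background. The Cxcl13 difference between strains at 4 h turned to -0.17 with the B cell covariate and -0.05 without the 5 arrays, where the median for ATCC PTA 6475 against PBS at 4 h was -0.21. Those 5 arrays were also the 5 of highest Cxcl13, so the fall to -0.05 follows from that choice. Weak pair correlations turned under median scaling to 0.08 (Ccl20 with Ccr6), 0.54 (Cx3cl1 with Cx3cr1), 0.13 (Cxcl12 with Ackr3), 0.02 (Cxcl9 with Cxcr3) and 0.34 (Ccl25 with Ackr4), and with deposited values to 0.03 (Cxcl10 with Cxcr3). Without the 5 arrays the time differences within ATCC PTA 6475 were -1.40 for Ccl4 and -0.35 for Ccl5, and the change of the DSM 17938 effect on Ccl17 was 0.88. The cause was not tested.

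Counts of members at an unadjusted p under 0.05 moved more. For ATCC PTA 6475 against PBS at 24 h the count was 0 with median scaling, 1 with the B cell covariate, 5 with array weights or the compared arrays alone, and 1 to 3 leaving out single arrays (1 without ATCC PTA 6475 replicate 2). For DSM 17938 against PBS at 24 h it was 1 with median scaling and 1 to 4 leaving out single arrays (4 without DSM 17938 replicate 2 or PBS replicate 3, 1 without PBS replicate 2). For ATCC PTA 6475 against PBS at 4 h it was 2 with the B cell covariate and 2 to 6 leaving out single arrays (2 without PBS replicate 1 or ATCC PTA 6475 replicate 3, 6 without ATCC PTA 6475 replicate 1). For DSM 17938 against PBS at 4 h it was 1 with median scaling and 1 to 3 leaving out single arrays (1 without PBS replicate 1 or 3). Between strains at 24 h it was 1 without a filter, 2 with the replicate block or without the 5 arrays, 3 with array weights and 0 to 2 leaving out single arrays. Between strains at 4 h it was 1 with median scaling or the 9-array filter, 0 with the B cell covariate, 4 with array weights or the compared arrays alone, and 1 to 6 leaving out single arrays (6 without ATCC PTA 6475 replicate 1, 1 without DSM 17938 replicate 3). For 24 h against 4 h in ATCC PTA 6475 it was 2 with median scaling, 3 without a filter or with the replicate block, 1 without the 5 arrays and 1 to 5 leaving out single arrays (2 without the 24 h replicate 2, 1 without the 4 h replicate 3). In DSM 17938 it was 1 with median scaling, deposited values, the replicate block, the compared arrays alone or the B cell covariate, and 1 to 3 leaving out single arrays. In PBS it was 0 with median scaling or deposited values, 2 with the B cell covariate or without the 5 arrays, and 0 to 2 leaving out single arrays. For the change of the DSM 17938 effect it was 1 with median scaling, the replicate block or the compared arrays alone, 0 with deposited values or an offset of 50, and 0 to 3 leaving out single arrays. For that of the ATCC PTA 6475 effect it was 3 with the replicate block, 1 with array weights, 2 without the 5 arrays and 0 to 3 leaving out single arrays.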
